A study of Mus musculus with 6 samples.

Results

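The genes described here encode the motor and filament proteins of muscle and their relatives in other cells: the myosin heavy and light chains, the unconventional myosins, the troponins, the tropomyosins and the alpha-actinins. They were taken by symbol, as every gene of the gene table whose name starts with Myh, Myl, Myo or Tpm or Actn plus a digit, or with Tnnc, Tnni or Tnnt, and 61 of the 19571 genes in the table qualified. Of these, 29 were classed as muscle genes, 31 as non-muscle genes, and 1, the tropomyosin gene copy Tpm3-rs7, was left unclassed. The muscle class joins 24 genes of striated muscle, the smooth muscle heavy chain gene Myh11, and 4 genes that serve both muscle and other cells (Tpm1, Tpm2, Myl9 and Myl6b). Genes counted as non-muscle can serve muscle as well: Myl6 also belongs to smooth muscle myosin, and Tpm3 has several spliced forms. A further 8 annotated symbols that match (Myh15, Myl10, Myo3a, Myo7b, Myo16, Tnnc2, Tnni3k and the pseudogene Tpm3-rs2) were not analysed here. The table lists genes above a low mean count, so a gene that is low in one genotype may be listed through the other.

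Muscle contracts when myosin heads pull on actin filaments. Each myosin heavy chain carries the motor and binds an essential and a regulatory light chain, tropomyosin lies along the actin filament, and the troponin complex moves tropomyosin aside when calcium binds. Alpha-actinin crosslinks actin at the Z-disc of striated muscle and at the adhesions of other cells. Most of these proteins exist in muscle forms and in non-muscle forms from separate genes; the non-muscle forms serve cell division, adhesion and cargo transport, and an undifferentiated stem cell relies on them.

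The cells were E14 mouse embryonic stem cells, grown on gelatin in medium with serum and LIF. Dot1l KO cells (genotype Dot1L-/-, made with CRISPR/Cas9) were compared with wild-type (WT) cells, 3 samples each, all labelled day 14 with no statement of what the day counts from. Dot1l is the methyltransferase of histone H3 lysine 79. The labels speak of knockout cell lines but do not say which sample is which line, or whether samples came from separate cultures, so p-values measure only the spread between these samples.

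The authors' DESeq2 comparison gives, gene by gene, a normalized count averaged over the 6 libraries, a log2 fold change, its standard error (SE) and a p-value, which was also adjusted over all genes. No values per sample were used, so the levels named below for each genotype are implied ones: the mean split by the fold change with equal group sizes. Library depths are unknown; the means sum to 36042647 normalized counts. The sign of the fold changes is not stated in the table. It was read here as Dot1l KO over WT, from published work on retroviral elements in such cells, and the opposite reading would turn every direction around. For Dot1l, which is edited in these cells, the authors' deposited table has a log2 fold change of -0.16 ± 0.25 (SE) with adjusted p = 0.845, so the RNA does not settle the sign. Of 10 pluripotency markers, including Pou5f1, Sox2 and Nanog, all were abundant, with mean counts from 5956 to 50682, and 0 passed the authors' DESeq2 test in the deposited table (1 was higher and 0 lower at an unadjusted p under 0.05).

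Rises among these genes lay mostly in the muscle class and all in myosin genes. Most members are myosin genes: 13 heavy chains, 10 light chains and 22 unconventional myosins of the 61. At an adjusted p under 0.05, 8 of the 61 members were higher in Dot1l KO (13.1%, against 5.34% of all genes tested) and 2 were lower (3.28%, against 1.25%). Of the muscle members 6 rose (Myh3, Myh7, Myh8, Myh11, Myh13 and Myl4) and 1 fell (Actn3). Of the non-muscle members 2 rose (Myo1g and Myo1a) and 1 fell (Myo3b). The share of rises was 20.7% of the muscle class and 6.45% of the non-muscle class, and the latter is near the 5.34% of all genes. No test was made between the classes, because genes are not replicates.

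With all members counted, the medians of the classes were close. The median log2 fold change was 0.07 over the muscle members and 0.02 over the non-muscle members, beside -0.02 over all genes, and in each class the signs were nearly balanced, with 15 positive and 14 negative values in the muscle class and 16 positive and 15 negative in the other. With genes of striated muscle alone in the muscle class its median was 0.43, because the 4 dual-use genes all had negative values. Without the unconventional myosins the non-muscle median was -0.25.

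Rises were more frequent among genes with low counts, and 17 of the 29 muscle members lay below the table's median mean count, so the calls were also read on either side of it. The median mean count was 215 in the muscle class and 2240 in the non-muscle class, with 278 over all genes. Below that median of all genes, 4 of 17 muscle members rose and 0 fell, where 9.24% of all such genes were higher and 0.593% lower. At or above it, 2 of 12 muscle members rose and 1 fell, where 1.43% of all such genes were higher and 1.9% lower. Non-muscle members had 1 rise and 1 fall among 6 below, and 1 rise and 0 falls among 25 at or above.

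**Figure D1:**
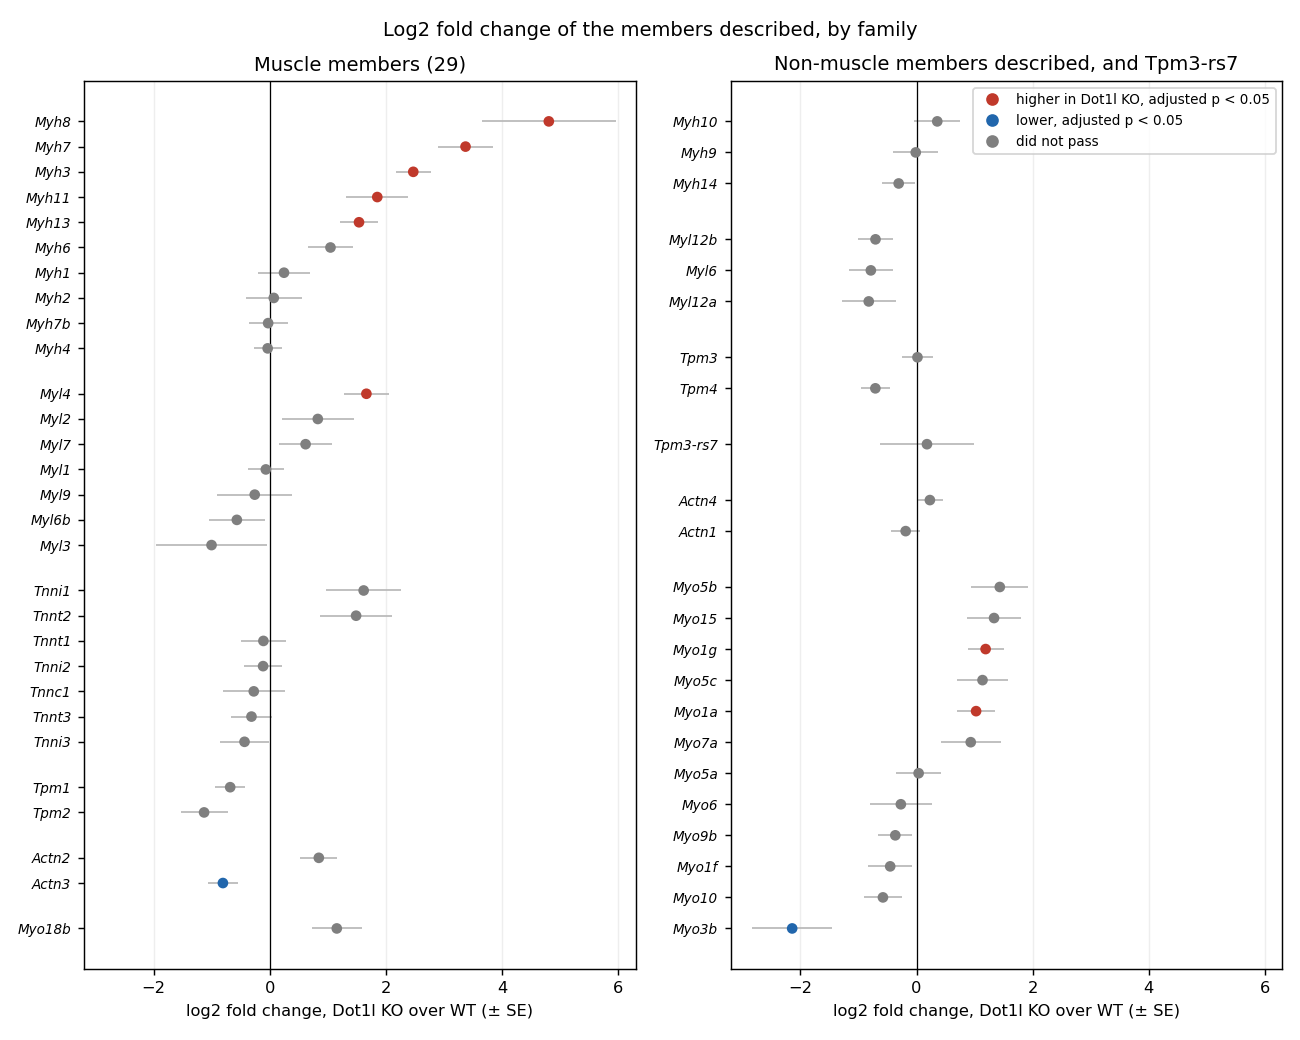
Log2 fold change of the members described here (x axis, Dot1l KO over WT) with its SE as a bar, grouped by family from heavy chains at the top to unconventional myosins at the bottom; the left panel holds the 29 muscle members and the right panel the non-muscle members, of whose unconventional myosins only those described in the text are drawn, with Tpm3-rs7. Red points, higher at an adjusted p under 0.05, lie mainly among the muscle heavy chains, from 1.54 for Myh13 to 4.80 for Myh8, while the non-muscle light chains and most tropomyosins lie left of 0 without passing.

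**Figure D2:**
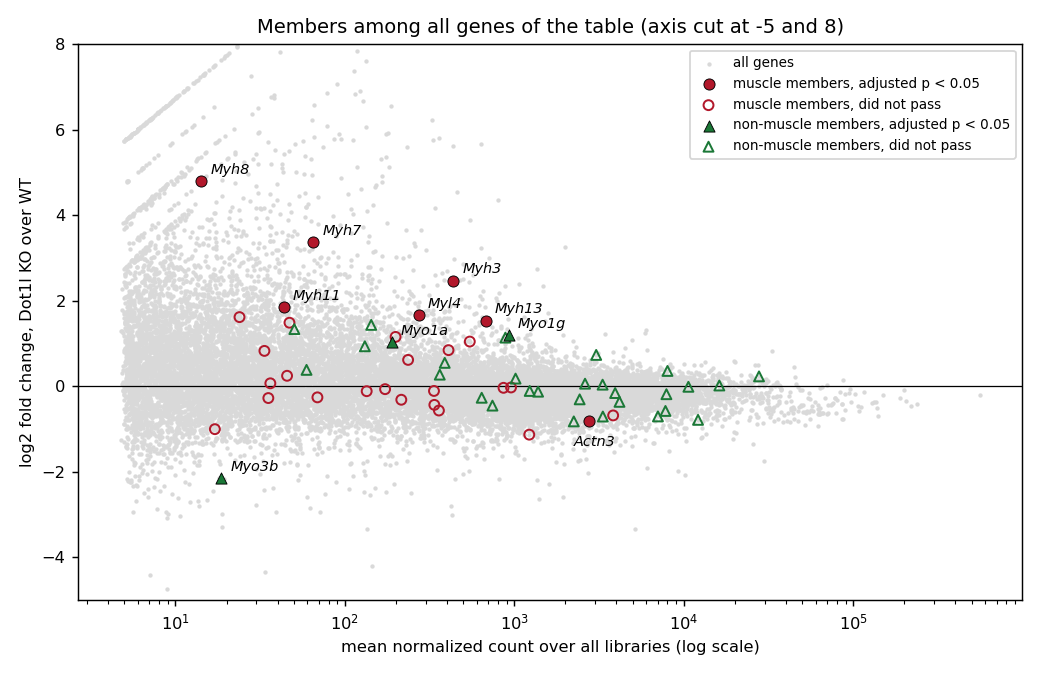
Log2 fold change (y axis) against the mean normalized count over all libraries (x axis, log scale) for all 19571 genes (grey), the muscle members (circles) and the non-muscle members (triangles); filled symbols passed the test, and genes beyond the axis range are not drawn. The cloud of all genes widens and shifts upwards towards low counts, and Myh3 and Myh13, with means of 436 and 677, lie near its upper edge at their level.

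The striated heavy chains carried the largest rises among the members. Of 9 genes 4 rose (44.4%, beside 5.34% of all genes) and 0 fell (beside 1.25%). Myh3, the embryonic heavy chain of developing muscle (chromosome 11, 67078300 to 67102291 in mm10), had implied levels of 133 in WT and 738 in Dot1l KO. Its log2 fold change in the authors' deposited table was 2.47 ± 0.30 with adjusted p = 1.28e-13, a 5.54-fold difference, and this was the smallest p of all members. Myh8, the perinatal heavy chain (chromosome 11, 67277124 to 67308634), had implied levels of 0.981 and 27.4. For it the authors' deposited table has 4.80 ± 1.15 with adjusted p = 0.00131, and a 95% interval computed from these of 2.54 to 7.06, which is wide because WT stood near 1 normalized count per library. Myh13, a heavy chain known from the eye muscles (chromosome 11, 67321658 to 67371586), had implied levels of 347 and 1007, with 1.54 ± 0.32 and adjusted p = 0.000131 per the authors' deposited table.

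These 3 genes share a stretch of 293 kb on chromosome 11 with the adult fast heavy chains, all on the plus strand, in the order Myh3, Myh2, Myh1, Myh4, Myh8 and Myh13. The adult genes in the middle of the row did not pass. Myh4, the heavy chain of the fastest fibres (67238029 to 67260446), had nearly equal implied levels of 873 and 851; in the authors' deposited table it has -0.04 ± 0.24 with adjusted p = 0.969, and the 95% interval from -0.51 to 0.43 does not reach the values of Myh3 or Myh13. Myh1 and Myh2, the other adult fast genes, stand at 0.24 ± 0.45 and 0.07 ± 0.48 in the authors' deposited table, with implied levels of 35.4 to 49.4 in the 2 genotypes. Only 16.7 kb separate the end of Myh4 from the start of Myh8, and 13.0 kb the end of Myh8 from the start of Myh13. A test of the differences between neighbours was not made.

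**Figure D3:**
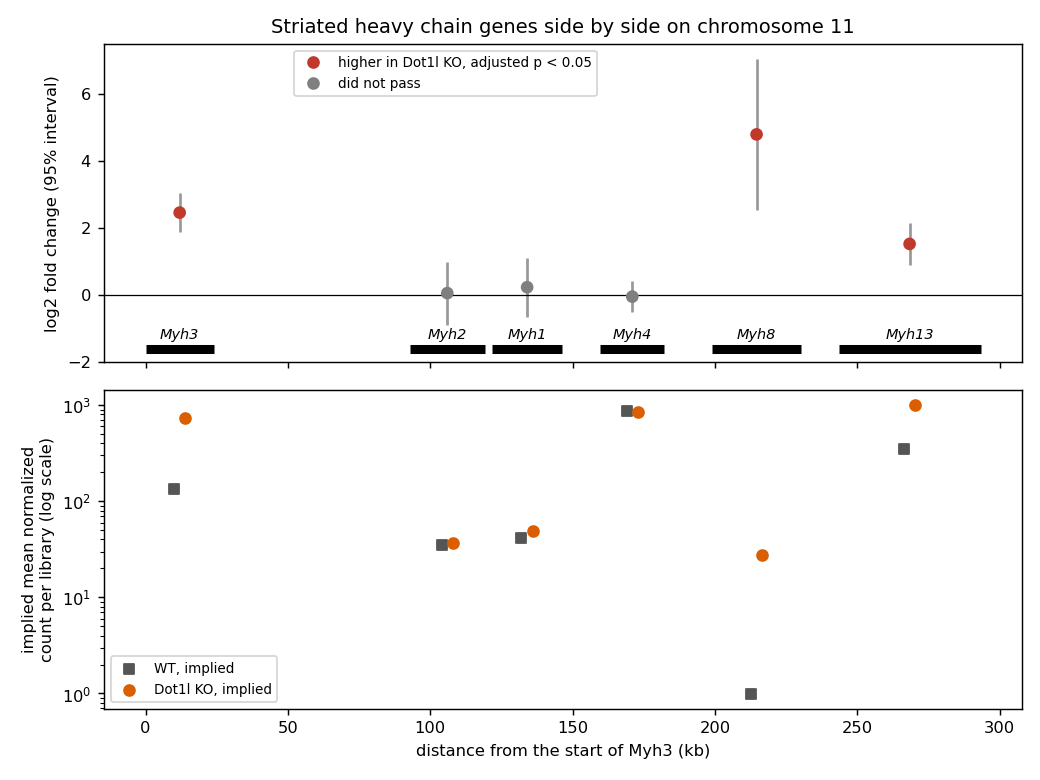
The 6 heavy chain genes of chromosome 11 along the distance from the start of Myh3 (x axis, kb); black bars mark the genes. The upper panel gives the log2 fold change with its 95% interval, the lower one the implied mean normalized count per library on a log scale for WT (squares) and Dot1l KO (circles). Myh3, Myh8 and Myh13 at the ends of the row are higher in Dot1l KO, while Myh2, Myh1 and Myh4 between them have near-equal levels.

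The cardiac heavy chains lie next to each other on chromosome 14, 3.76 kb apart on the minus strand. Myh7, the slow and ventricular beta heavy chain (54970684 to 54994626), had implied levels of 11.5 in WT and 119 in Dot1l KO. With 3.37 ± 0.48 and adjusted p = 4.18e-10 per the authors' deposited table, it rose 10.3-fold. Myh6, the alpha heavy chain of the atria and adult mouse heart (54941921 to 54966927), had 356 and 734; its log2 fold change of 1.04 ± 0.39 did not pass (adjusted p = 0.0880) per the authors' deposited table. Both thus point the same way, and Myh7, with the lower mean count (65.1 against 545), has the larger value. These genes share sequence, as described below, so their directions may not be independent. Myh7b, an old relative expressed in heart and slow muscle, had 964 and 945 and -0.03 ± 0.33 in the authors' deposited table.

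Outside striated muscle, the smooth muscle gene Myh11 (chromosome 16, 14194535 to 14291372) rose from an implied 19.0 to 68.3, with 1.85 ± 0.53 and adjusted p = 0.0129 per the authors' deposited table. This call was lost when fold changes were centred within bins of mean count (adjusted p = 0.0771, where centring on the median of all genes gave 0.0115). The non-muscle heavy chains, which build the contractile ring and stress fibres, did not pass. Myh9 had implied levels of 10679 and 10580, Myh10 of 7014 and 8983, and Myh14 of 2683 and 2169. Their log2 fold changes in the authors' deposited table are -0.01 ± 0.39, 0.36 ± 0.39 and -0.31 ± 0.28.

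The bases before the start of 6 genes are shown because neighbouring heavy chain genes had such different values: 4 heavy chains that rose, the light chain Myl4 that rose too, and Myh4, the neighbour that did not pass. Each run covers the 150 bases upstream of the first listed RefSeq start (GRCm38.p6, the assembly of mm10), 5′ to 3′ on the gene's strand. Capitals mark a TATA box (TATAAA), an E-box (CANNTG, the site type of the MyoD family), a CArG box (the site type of SRF) or a MEF2 site, searched on both strands.
Myh3, chr11:67078150-67078299, plus strand: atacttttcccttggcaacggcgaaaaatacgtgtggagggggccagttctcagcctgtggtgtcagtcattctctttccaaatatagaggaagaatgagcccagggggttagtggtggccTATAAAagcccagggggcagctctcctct
Myh8, chr11:67276974-67277123, plus strand: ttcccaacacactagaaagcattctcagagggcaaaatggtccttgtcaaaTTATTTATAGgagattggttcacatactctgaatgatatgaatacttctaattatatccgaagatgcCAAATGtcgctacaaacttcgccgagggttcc
Myh13, chr11:67326953-67327102, plus strand: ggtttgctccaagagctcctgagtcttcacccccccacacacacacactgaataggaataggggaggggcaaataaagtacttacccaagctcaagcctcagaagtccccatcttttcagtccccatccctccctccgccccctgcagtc
Myh7, chr14:54994627-54994776, minus strand: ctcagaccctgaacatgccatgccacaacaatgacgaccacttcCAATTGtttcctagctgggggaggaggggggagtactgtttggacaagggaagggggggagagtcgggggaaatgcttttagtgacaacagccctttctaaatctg
Myl4, chr11:104550513-104550662, plus strand: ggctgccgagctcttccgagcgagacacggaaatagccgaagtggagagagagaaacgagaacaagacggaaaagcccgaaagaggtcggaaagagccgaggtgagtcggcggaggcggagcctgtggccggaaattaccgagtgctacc
Myh4, chr11:67237662-67237811, plus strand: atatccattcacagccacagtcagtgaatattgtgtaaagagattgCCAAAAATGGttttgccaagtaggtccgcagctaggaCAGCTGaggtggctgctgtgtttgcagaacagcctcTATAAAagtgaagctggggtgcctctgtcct

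Myh3 and Myh4 each have a TATA box on the printed strand, at positions -29 and -31 from the start, and Myh4 also has an E-box and a CArG box in this stretch. In Myh8 the MEF2 site at -99 overlaps a TATA box on the opposite strand at -96, and an E-box follows at -32. In Myh7 there is an E-box at -106, and for Myh13 and Myl4 none of the 4 motifs is in these 150 bases. Windows of 250 bases before the start were listed for 52 of the 61 members. Of 24 muscle members with a window, 6 held a TATA box, 20 an E-box, 4 a CArG box and 3 a MEF2 site, where the shares over all 32841 windows were 12.4%, 66.2%, 1.47% and 2.92%. Of 28 non-muscle members the same motifs were in 2, 15, 1 and 0. The 4 muscle members with a CArG box were Myh4, Myl3, Myl7 and Myl9, and 0 of them passed the test of expression. The RefSeq start of Myh13 lies inside the gene as GENCODE draws it. A match is only a description of the letters.

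Light chain rises were near the share over all genes with low counts (9.24%): 1 of 10 rose. This was Myl4, the essential light chain of the atria and of embryonic muscle (chromosome 11, 104550663 to 104595753), with implied levels of 131 in WT and 415 in Dot1l KO and 1.66 ± 0.39, adjusted p = 0.000766, per the authors' deposited table. The other striated light chains gave wide intervals and did not pass. Myl7, the atrial regulatory chain, has 0.62 ± 0.45 in the authors' deposited table, and Myl2, the regulatory chain of ventricle and slow muscle, 0.83 ± 0.61. Myl1 of fast muscle has -0.07 ± 0.32 and Myl3 of ventricle and slow muscle -1.004 ± 0.961 in the same authors' deposited table. Myl3 had a mean of only 17.1 normalized counts.

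The light chains of non-muscle and smooth muscle myosin all had negative values, though none passed after adjustment. Myl6, the essential chain and the most abundant of them per exon length, had implied levels of 15339 and 8894, and in the authors' deposited table it has -0.79 ± 0.38 with adjusted p = 0.261. The regulatory chains Myl12b and Myl12a have -0.71 ± 0.30 (adjusted p = 0.175) and -0.82 ± 0.47 (adjusted p = 0.390) per the authors' deposited table. Of the 3, Myl6 and Myl12b were lower at an unadjusted p under 0.05. The dual-use chains Myl9 and Myl6b stood at -0.26 ± 0.64 and -0.57 ± 0.49 in the authors' deposited table. The median over all genes of like abundance was also below 0, at -0.20 in the top bin of mean count, which holds Myl6.

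None of the 7 troponin genes in the table passed the authors' DESeq2 test, and 2 were higher and 0 lower at an unadjusted p under 0.05. Those 2 were Tnni1, the inhibitory subunit of slow muscle, at 1.62 ± 0.65 (adjusted p = 0.128), and Tnnt2, the tropomyosin-binding subunit of heart, at 1.48 ± 0.62 (adjusted p = 0.161) per the authors' deposited table. Their implied levels were low, 11.7 and 36.0 for Tnni1 and 24.8 and 69.3 for Tnnt2. The other 5 had values between -0.44 for the cardiac Tnni3 and -0.11 for the slow Tnnt1 in the authors' deposited table, with Tnnt3 and Tnni2 of fast muscle and the calcium-binding subunit Tnnc1 between them.

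Troponin I and T genes lie in pairs in the mouse genome, and within each pair the values had the same sign. Tnni1 and Tnnt2 are 25.4 kb apart on chromosome 1 and have the 2 positive values given above. Tnnt1 and Tnni3 are 1.92 kb apart on chromosome 7, at -0.11 ± 0.39 and -0.44 ± 0.42 in the authors' deposited table. Tnni2 and Tnnt3 are 54.4 kb apart on the same chromosome, at -0.12 ± 0.33 and -0.32 ± 0.35 in the authors' deposited table. The values of the pairs on chromosome 7 overlapped, and Tnnc1, on chromosome 14, was also negative, at -0.28 ± 0.54 in the authors' deposited table. Since 0 of these genes passed, the shared sign within pairs is a description of fitted values.

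Tropomyosins tended to lower values, again without a call. Tpm2, a beta-tropomyosin of muscle and other cells, had implied levels of 1680 in WT and 766 in Dot1l KO, with -1.13 ± 0.40 and adjusted p = 0.0698 per the authors' deposited table. Tpm4, a non-muscle form, has -0.71 ± 0.25 (adjusted p = 0.0608) and Tpm1, which yields muscle and non-muscle forms by splicing, -0.68 ± 0.26 (adjusted p = 0.106) per the authors' deposited table. These 3 were lower at an unadjusted p under 0.05. Tpm3, the most abundant tropomyosin per exon length, was level at an implied 16089 and 16273, with 0.02 ± 0.26 in the authors' deposited table. Counts per gene do not tell the spliced forms of Tpm1 or Tpm3 apart, and Tpm3 and Tpm4 share sequence with other genes, as described below. The unclassed copy Tpm3-rs7, with a mean of 15.6, has 0.18 ± 0.81 in the authors' deposited table.

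The alpha-actinins of muscle had opposite signs. Actn3, the form of fast muscle fibres (chromosome 19, 4861216 to 4877909), fell from an implied 3484 to 1990, a 1.75-fold difference, with -0.81 ± 0.26 and adjusted p = 0.0320 per the authors' deposited table. It was the muscle member that fell, and the call was lost when fold changes were centred within bins of mean count (adjusted p = 0.189, where centring on the median of all genes gave 0.0379). Actn2, the main Z-disc form, had 292 and 524, and at 0.84 ± 0.32 with adjusted p = 0.0939 per the authors' deposited table it did not pass. The non-muscle forms Actn1 and Actn4, which link actin at adhesions, have -0.19 ± 0.25 and 0.23 ± 0.23 in the authors' deposited table.

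The unconventional myosins carry cargo and tether membranes to actin. Of 22 genes, 2 rose (9.09%, beside 5.34% of all genes), 1 fell (4.55%, beside 1.25%), and 14 had positive values. Myo1g, a membrane-bound class I myosin known from blood cells (chromosome 11, 6506548 to 6520965), went from an implied 566 in WT to 1292 in Dot1l KO, with 1.19 ± 0.31 and adjusted p = 0.00415 per the authors' deposited table. Myo1a, the class I myosin of the intestinal brush border (chromosome 10, 127705170 to 127720940), went from 124 to 253, with 1.03 ± 0.32 and adjusted p = 0.0281 per the authors' deposited table. Centring within bins of mean count ended the call of Myo1a (adjusted p = 0.0651, where centring on the median of all genes gave 0.0237). Myo3b, a class III myosin of hair cells and retina (chromosome 2, 70039126 to 70429198), fell from an implied 30.3 to 6.87, with -2.14 ± 0.69 and adjusted p = 0.0335 per the authors' deposited table.

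Of the unconventional myosins that were higher at an unadjusted p under 0.05 without passing after adjustment, 4 are described here. Myo5b, which moves recycling endosomes in epithelia, has 1.43 ± 0.49 with adjusted p = 0.0522 per the authors' deposited table; centred on the median of all genes it reached 0.0476, and centred within bins 0.142. Myo15, a motor of hair cell stereocilia, has 1.33 ± 0.47 (adjusted p = 0.0613), and Myo5c, a class V motor of glandular epithelia, 1.14 ± 0.44 (adjusted p = 0.109) per the authors' deposited table. Myo18b, the relative that is needed for sarcomeres and was counted as a muscle gene, has 1.15 ± 0.43 (adjusted p = 0.0930) per the authors' deposited table. Other motors of epithelial and sensory cells differed in sign. Myo7a of hair cells was positive too, at 0.93 ± 0.52 (adjusted p = 0.375) per the authors' deposited table, with an unadjusted p above 0.05. Myo6, also of hair cells, has -0.27 ± 0.54 (adjusted p = 0.884) per the authors' deposited table, and Myo3b fell.

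The abundant unconventional myosins stayed short of the threshold. Myo10, the filopodial motor, had implied levels of 9321 and 6243, with -0.58 ± 0.32 (adjusted p = 0.371) per the authors' deposited table. Myo9b, a class IX myosin, has -0.37 ± 0.29 and Myo1f, a class I myosin of blood cells, -0.45 ± 0.38 in the authors' deposited table. Myo5a, the class V motor that carries pigment granules, was at 0.04 ± 0.39 in the authors' deposited table.

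Per kb of exon the 6 highest members were all non-muscle genes, led by Actn4 at 4528 normalized counts per kb, then Myl6 at 3802, Tpm3 at 2659, Myl12b at 2536, Tpm4 at 1509 and Actn1 at 1425. Actn3 came next at 943 per kb and was the highest muscle member, followed by Myh9 at 822. Below these the classes were mixed: Tpm1, Tpm2 and Myl7 had 589.5, 420.5 and 399.7 per kb, while the non-muscle Myo15 and Myo3b had 3.94 and 2.64. The median was 81.1 per kb in the muscle class and 224 in the non-muscle class. Exon length was merged over all transcripts and can exceed that of a single transcript. No other length was tried, so the ranks per kb hold for this length only. Among the muscle members that rose, Myh13 had 110 per kb, Myh3 71.9, Myl4 58.9, Myh7 7.56, Myh11 5.74 and Myh8 1.20, the lowest of all members. In Dot1l KO the implied level of Myh3 per kb was 122, still far below the 818 of the non-muscle Myh9 in the same cells. In a bulk sample, a rise in few cells and a small rise in all of them cannot be told apart.

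**Figure D4:**
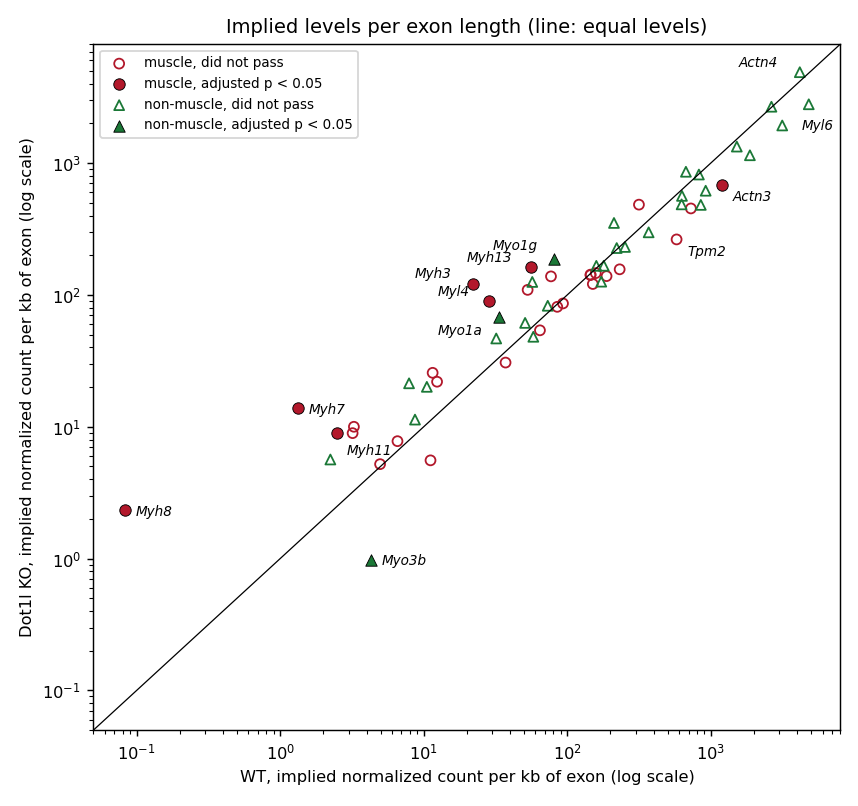
Implied normalized count per kb of exon in WT (x axis) and Dot1l KO (y axis), both on log scales, for the 29 muscle members (circles) and 31 non-muscle members (triangles); filled symbols passed the test and the line marks equal levels. The muscle genes that rose sit above the line in the lower and middle range, while the upper end near Actn4 and Myl6 is held by non-muscle genes.

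Heavy chain genes are alike in sequence, so reads can be hard to place, and no source used here says how the counting treated such reads or strand. The share of a gene's 50-base words that also occur in transcripts of another gene was 4.76% for Myh3, 12.1% for Myh8, 8.26% for Myh13, 18.9% for Myh4 and 20.04% for Myh7, whose main partner is Myh6. Myl4 with 0.043% and Myh11 with 0.340% share almost none. Exons of Myh7 overlap antisense genes, Mhrt among them, over 13.3% of their length. In all, 13 members share over 10% of their words or exon bases, and without them 4 muscle members rose and 1 fell. The values of Myh7, Myh8 and their neighbours are uncertain to that extent, as are those of Myl12a and Myl12b. The same holds for Tpm3, Tpm4, Tpm3-rs7 and Myl1, which share 23.2%, 15.7%, 69.4% and 11.7% of their words.

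Other parts of the contractile machinery were read from lists of related genes, whose counts stand beside 5.34% higher and 1.25% lower over all genes, or 9.24% and 0.593% over genes below the median mean count. The thick-filament, calcium handling and Z-disc lists have median mean counts of 86.8, 97.2 and 63.7, in that lower range. Among 13 giant and thick-filament proteins 2 rose and 1 fell. Myom3, which crosslinks myosin at the M-band, and Mybpc1, the slow myosin-binding protein C, have 1.75 ± 0.42 (adjusted p = 0.00110) and 1.51 ± 0.43 (adjusted p = 0.0104) per the authors' deposited table. Obsl1, a widely expressed relative of obscurin, fell at -0.95 ± 0.31 (adjusted p = 0.0406) per the authors' deposited table. Over these 13 genes the median was 0.91, where genes of like abundance have 0.23. Of the calcium handling list, 3 of 12 rose and 1 fell. The release channel Ryr3 has 1.97 ± 0.40 (adjusted p = 5.00e-05), the calcium channel subunit Cacna1s 2.62 ± 0.54 (adjusted p = 0.000100) and the junction protein Jph2 1.38 ± 0.38 (adjusted p = 0.00716) per the authors' deposited table. Casq2, the cardiac calcium store protein, fell at -2.59 ± 0.74 (adjusted p = 0.0121) per the authors' deposited table.

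Of the 4 myosin light-chain kinases 2 rose. Mylk3 of heart and Mylk2 of skeletal muscle have 3.38 ± 0.78 (adjusted p = 0.000652) and 1.85 ± 0.53 (adjusted p = 0.0129) per the authors' deposited table, the only calls among 15 kinases, phosphatase subunits and related regulators. Mylk, the form of smooth muscle and other cells, and Mylk4 did not pass, at 1.92 ± 0.84 (adjusted p = 0.187) and -0.66 ± 0.61 (adjusted p = 0.682) per the authors' deposited table. Of 13 Z-disc and filament genes 1 rose, which is near the share over all genes with low counts: Synpo2, an actin-bundling protein of muscle, at 1.11 ± 0.37 (adjusted p = 0.0447) per the authors' deposited table. Of 22 partners of unconventional myosins 1 rose and 1 fell, the count of rises being near the share over all genes: Vil1, the brush border bundler villin, has 1.05 ± 0.33 (adjusted p = 0.0297) and Tom1, an adaptor of myosin VI, -0.74 ± 0.24 (adjusted p = 0.0352) per the authors' deposited table.

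No gene passed in the lists of actins, thin-filament ends and chaperones. None of 5 actins passed the authors' DESeq2 test, with 0 higher and 1 lower at an unadjusted p under 0.05. Acta2, the smooth muscle actin, has -2.25 ± 0.84 (adjusted p = 0.0926) and Actb, the main cytoplasmic actin, -0.64 ± 0.38 (adjusted p = 0.425) per the authors' deposited table. The striated muscle actins Acta1 and Actc1 have 0.12 ± 0.26 and -0.003 ± 0.461 in the authors' deposited table. Over the 5 actins the median was -0.35, where genes of like abundance have -0.13. Of 11 genes for thin-filament ends and calponins 0 passed, with 1 higher and 1 lower at an unadjusted p under 0.05; Cnn2 has -1.08 ± 0.39 (adjusted p = 0.0748) and the filament cap Tmod2 0.71 ± 0.31 (adjusted p = 0.180) per the authors' deposited table. The median over these 11 genes was positive, at 0.39, where genes of like abundance have -0.13. Of 6 myosin chaperones 0 passed, with 0 higher and 1 lower at an unadjusted p under 0.05. Smyd2 and Hsp90ab1 had the smallest p of the chaperones, at -0.62 ± 0.32 and -0.42 ± 0.28 in the authors' deposited table. The chaperone median was -0.28, where genes of like abundance have -0.12.

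Among the factors that switch on muscle genes, the 2 skeletal ones described here were scarce. Myod1, the master factor of skeletal muscle, had implied levels of 1.94 and 15.8, and its 3.03 ± 1.14 did not pass (adjusted p = 0.0923) per the authors' deposited table. Myog, which follows it in differentiation, had a mean of 5.38 and has 0.37 ± 1.06 in the authors' deposited table.

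**Figure D5:**
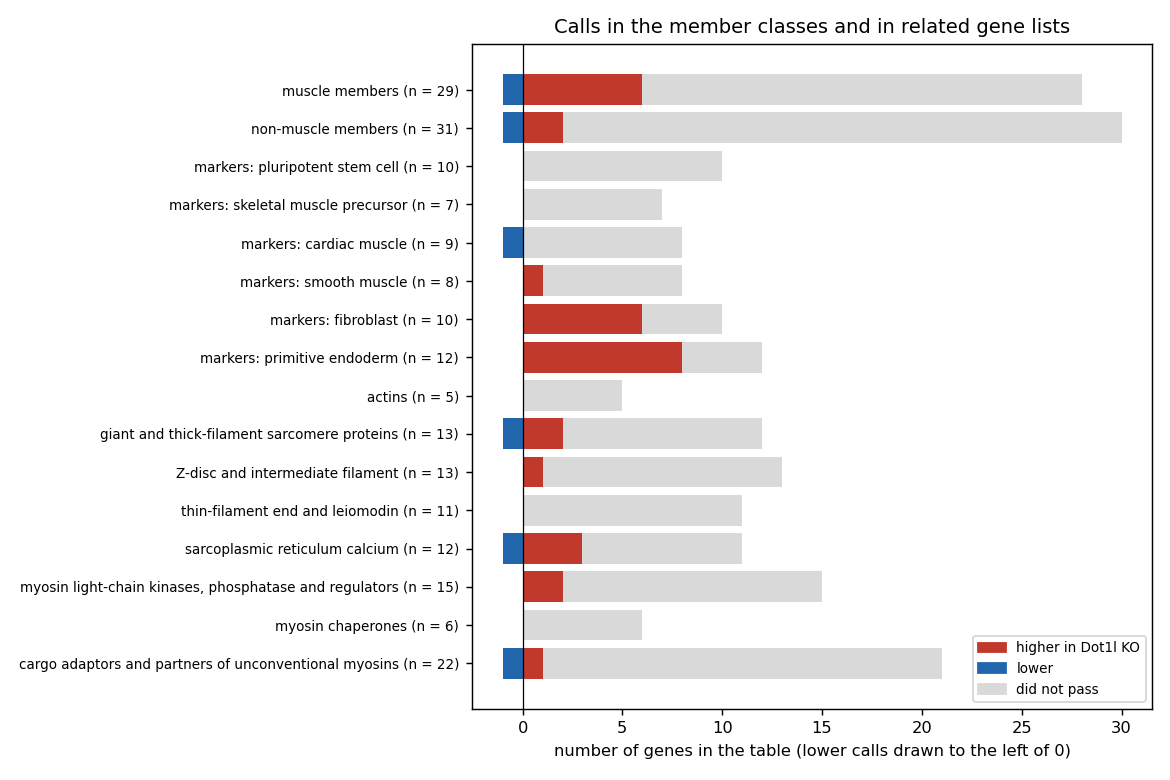
Number of genes that were higher (red) or lower (blue, drawn left of 0) in Dot1l KO at an adjusted p under 0.05 or did not pass (grey), for both member classes and the related lists; n is the number of genes in the table. Fibroblast and primitive endoderm markers have the most rises for their size, 6 of 10 and 8 of 12, while actins, chaperones and thin-filament ends have none.

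Markers of other cell types moved beside these genes. Of 7 skeletal muscle precursor markers 0 passed the authors' DESeq2 test (1 higher and 0 lower at an unadjusted p under 0.05), with summed implied levels of 1317 in WT and 1362 in Dot1l KO. Most of that sum is Des, the intermediate filament desmin, with 1081 and 1079, and the median log2 fold change of the list was 0.92, where genes of like abundance have 0.42. Pax3, Myf5, Myf6, Mymk and Musk were not analysed here. Pax7, a marker of muscle precursors, has 1.40 ± 1.03 in the authors' deposited table. Over all genes 5.34% were higher and 1.25% lower, or 9.24% and 0.593% of those below the median mean count. Of 9 cardiac markers 0 rose and 1 fell, with sums of 525 and 729. Their median was 0.82, where genes of like abundance have 0.37. Of 8 smooth muscle markers 1 rose, which is near the share over all genes with low counts, and 0 fell. Their sums were 3110 and 3044 and their median 0.34, where genes of like abundance have 0.23. Of 10 fibroblast markers 6 rose and 0 fell, with sums of 10634 and 10142, of which Vim, the filament protein vimentin, makes up 8900.2 and 6382, and a median of 1.26. The largest of these rises, Col1a2, a fibrillar collagen, has 4.03 ± 0.76 in the authors' deposited table. Of 12 primitive endoderm markers 8 rose and 0 fell, with sums of 16783 and 24944 and a median of 2.34; Dab2 and Cubn have 2.75 ± 0.43 and 3.73 ± 0.61 in the authors' deposited table. The part of such cells in the rises of the muscle genes was not tested.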

How the data were processed

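Total RNA from 3 Dot1l KO and 3 WT samples was sequenced. The authors used HISAT2 2.1.0, featureCounts 2.0.0, DESeq2 and the mm10 build, per the submitters' processing notes, which name no settings. Of 3 deposited tables the gene table was used; the element tables were left out, because their copies carry no coordinates. Per the file headers, the signal is the mean of read counts divided by the authors' size factors, effects are log2 fold changes with an SE, the score is the Wald statistic, and each p-value comes with its Benjamini-Hochberg adjustment over the 19564 genes with a p-value, all as deposited. Recomputing the score, p-value and adjustment gave the deposited values to within 4.1e-14. All 61 members had a p-value.

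Members and lists were chosen with earlier results of these data known. Named were all members past the threshold, all outside the unconventional myosins, the 2 most abundant of those and the 2 largest changes each way at a mean of at least 50; in other lists, up to 4 calls or the 2 smallest p. Myo5a, Myo5c, Myo6, Myo7a, Myo18b, Mylk, Mylk4, Des, Vim, Myog, Pax7, Pou5f1, Sox2 and Nanog were added beyond that rule, after their values were seen. Acta1 and Actc1 were added in the same way. Some results taken by the rule are not reported here. Annotation is GENCODE M21; promoters are RefSeq, GRCm38.p6, where the first listed start was used. Exon length is the merged length over all transcripts. Centred values and adjustments were recomputed in Python 3.11.15 with scipy 1.17.1 and tested on simulated data. No planned fit of single samples could be made.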

Additional observations from a re-analysis of the deposited data

How the results depend on the processing

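No paired analysis was possible because no values per sample were used, and leaving out a replicate was not run for the same reason; element copies within members were not described, for want of coordinates. Against 8 higher and 2 lower members (muscle 6 and 1, non-muscle 2 and 1), an adjusted p under 0.01 left 0 lower in either class and 1 higher in the non-muscle class. A log2 fold change of at least 1 left 1 lower member and 0 lower muscle members. A mean count of at least 50 left 1 lower, with 0 in the non-muscle class. Centring within 20 bins of mean count left 1 lower member, 0 lower muscle members and 1 higher non-muscle member. Bonferroni adjustment left 3 higher members, all of the muscle class, and 0 lower. Without the unconventional myosins the non-muscle class had 0 higher and 0 lower. The medians of the classes differed by 0.05 (muscle minus non-muscle), by 0.41 with striated genes alone as muscle, by 0.31 without the unconventional myosins, and by -0.08, -0.06 and -0.12 with a mean count of at least 50, centring within bins and members with shared sequence left out, the last chosen after seeing the data. The cause was not tested. The other counts stayed within 1.5 times. Of 47 named members, centring on the median of all genes added the call of Myo5b, and centring within bins ended those of Myh11, Actn3 and Myo1a. Low counts widen the intervals of Myh8, Myl3, Myo3b and Tpm3-rs7, among others.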
